A study of Mus musculus with 13 samples.

Results

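The genes described here are ATF4, a set of its best known target genes, and the cytosolic tRNA synthetases, measured in mouse melanoma cells recovered from the lungs of mice that carried human APOE2 or human APOE3. They were chosen by name from a list of 35 genes, and 35 of the 35 were found among the 22656 genes of the deposited table. The list holds 15 genes of the ATF4 response, ATF4 among them, and 20 genes that encode subunits of cytosolic tRNA synthetases. The genotype comparison found 0 of the 35 past the adjusted threshold of limma, against 0.79% of all genes tested. Lower mean log2 levels in APOE2 hosts were found for 24 of the 35, against 49.9% of all genes tested. The 10 genes with an unadjusted limma p-value under 0.05 were 8 lower ones (Dars, Yars, Psat1, Hars, Slc7a5, Wars, Iars and Sesn2) and 2 higher ones (Nars and Psph). Of all genes tested 14.2% had such a p-value, 6.71% lower and 7.51% higher.

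ATF4 is a transcription factor of the bZIP family that cells make more of when the initiation factor eIF2 is phosphorylated by one of its stress kinases, among them GCN2, which senses uncharged tRNA, and PERK, which senses unfolded proteins in the endoplasmic reticulum. It binds composite C/EBP-ATF response elements and switches on genes for amino acid uptake, amino acid synthesis and the charging of tRNA. Much of its regulation acts on translation of its mRNA, which a measurement of mRNA does not show. Each cytosolic tRNA synthetase joins an amino acid to its tRNA, and several of these enzymes are held together in a multi-synthetase complex.

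The cells were of the line B16F10-TR-shApoe, a derivative of the melanoma line B16F10 with a hairpin RNA against mouse Apoe, which the cells of both groups carried. APOE2 knock-in mice (8 libraries, from as many mice by the design text) and APOE3 knock-in mice (5 libraries, likewise) received 100000 cells through the lateral tail vein, so the genotype under comparison is that of the host. On day 15 the lungs were digested with collagenase, and living GFP+ CD45- cells were sorted. The QuantSeq FWD libraries sample each mRNA near its poly(A) tail, so read counts do not scale with transcript length. Age, sex and strain of the mice are not given in the sources used here, and cells that lack the hairpin are not analysed here.

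Read totals ran from 7080308 to 13039989 per library. Apoe had 1217 to 2102 normalised counts in APOE2 hosts and 1193 to 2369 in APOE3 hosts. The 8 melanocyte markers, Dct, Tyr and Pmel among them, summed to between 302980 and 462010 normalised counts in APOE2 and between 220390 and 334300 in APOE3, with 0 of 8 past the threshold of limma. Markers of other lung cells were present at lower levels, and some of them differed with genotype. The 15 lung epithelium markers summed to 822 to 4195 in APOE2 and 3591 to 21509 in APOE3, and 6 of the 11 that were tested fell in APOE2 hosts by limma. The 14 endothelial markers summed to 825 to 1235 and 1089 to 2394, with 1 of 14 past the threshold. The 16 leukocyte markers summed to 534 to 2613 and 2175 to 12802, with 2 of 8 tested past it. The 12 fibroblast and smooth muscle markers summed to 162 to 493 and 341 to 2080.4, with 1 of 7 tested past it. The 5 erythroid markers found summed to 40.6 to 189 and 23.2 to 219.8, with 0 of 3 tested past it. No listed marker was at 0 in all 13 libraries. Fewer cells of a type and less RNA per cell cannot be told apart in such bulk samples, and the part of other cells in the results was not tested.

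Promoter sequence was searched for the core of the C/EBP-ATF response element, since that element is what the target genes are known to share. Many of the genes were listed as known ATF4 targets, so the share that holds the element is not independent of their choice. RefSeq promoter windows on GRCm38.p6, from 250 bases before to 50 bases after each annotated start, were matched for 26 of the 35 genes (27 windows); Cars, Hars, Lars, Mars, Nars, Rars, Slc7a5, Vars and Wars were not matched. The letters TGATGNAA, where N is any base, were searched on both strands. They were present for 9 of the 26 genes (34.6%) and for 4.51% of the 27025 genes that have a window. For each of the 9 genes the 30 bases around 1 match are shown because these letters are what the genes have in common, written along the strand of the gene with the matched letters in capitals; TTNCATCA in capitals is the element on the opposite strand.
Chac1, chr2:119351038-119351067, plus strand: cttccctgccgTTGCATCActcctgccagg
Trib3, chr2:152344028-152344057, minus strand: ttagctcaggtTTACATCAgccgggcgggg
Yars, chr4:129189895-129189924, plus strand: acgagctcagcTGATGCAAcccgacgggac
Asns, chr6:7693214-7693243, minus strand: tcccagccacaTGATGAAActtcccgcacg
Gars, chr6:55037960-55037989, plus strand: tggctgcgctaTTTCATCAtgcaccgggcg
Aars, chr8:111033840-111033869, plus strand: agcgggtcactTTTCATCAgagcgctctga
Pycr1, chr11:120643833-120643862, minus strand: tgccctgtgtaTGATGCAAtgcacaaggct
Iars, chr13:49682126-49682155, plus strand: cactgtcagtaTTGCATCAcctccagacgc
Tars, chr15:11399655-11399684, minus strand: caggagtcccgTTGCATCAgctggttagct
Of the matches shown, those of Trib3, Yars, Iars and Aars began after the annotated start and the others before it, from 193 bases before it in Chac1 to base 15 in Trib3. These matches are letters in a window and were not measured as binding sites. The 9 genes were 4 targets (Chac1, Trib3, Asns and Pycr1) and 5 synthetases (Aars, Gars, Iars, Tars and Yars).

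Host genotype was compared gene by gene with limma over 12403 genes that had a mean of at least 10 normalised counts. All 35 genes passed that filter. Fold changes are APOE2 over APOE3 on the log2(normalised count + 1) scale, so a negative value is a lower level in APOE2 hosts. Limma called 0 of the 35 genes at an adjusted p-value under 0.05, against 0.79% of all genes tested. Unadjusted p-values were under 0.05 for 10 of the 35 (28.6%), against 14.2% of all genes tested. Of these, 8 were lower in APOE2 hosts (6.71% of all genes tested were lower at that p-value) and 2 were higher (7.51% of all). The libraries of the groups overlapped for all 35 genes, and did not overlap for 0.984% of all genes tested. On recovered reads, edgeR called 0 of the 35 (1.11% of all genes), and 9 had unadjusted p-values under 0.05 (6.86% of all genes were lower and 6.35% higher at that p-value). DESeq2 called 1 of the 35, Dars, which was lower (2.51% of all genes called, 1.27% lower). Unadjusted DESeq2 p-values were under 0.05 for 10 of the 35 (7.77% of all genes lower, 6.7% higher). Over the whole table limma called 51 genes higher and 47 lower in APOE2 hosts, and 38 higher and 54 lower with equal library totals.

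The median log2 fold change was −0.19 over ATF4 and its 14 targets and −0.16 over the 20 synthetase genes, where the median of all genes tested was 0.00037. Lower levels in APOE2 were found for 11 of the 15, for 13 of the 20 and for 49.9% of all genes. The 95% limma intervals lay inside a 2-fold change in both directions for 33 of the 35 genes (94.3%), with Sesn2 and Pycr1 as the exceptions, and for 69.1% of all genes tested. Without APOE3 replicate 2 the synthetase median was −0.076, and without APOE3 replicate 5 the target median was −0.11. When the fit was given the mean level of the epithelial markers as a covariate, which itself moved with genotype, the medians were −0.042 over the targets and −0.053 over the synthetases. In that fit 1 of the 35 had an unadjusted limma p-value under 0.05, against 6.7% of all genes tested.

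**Figure D1:**
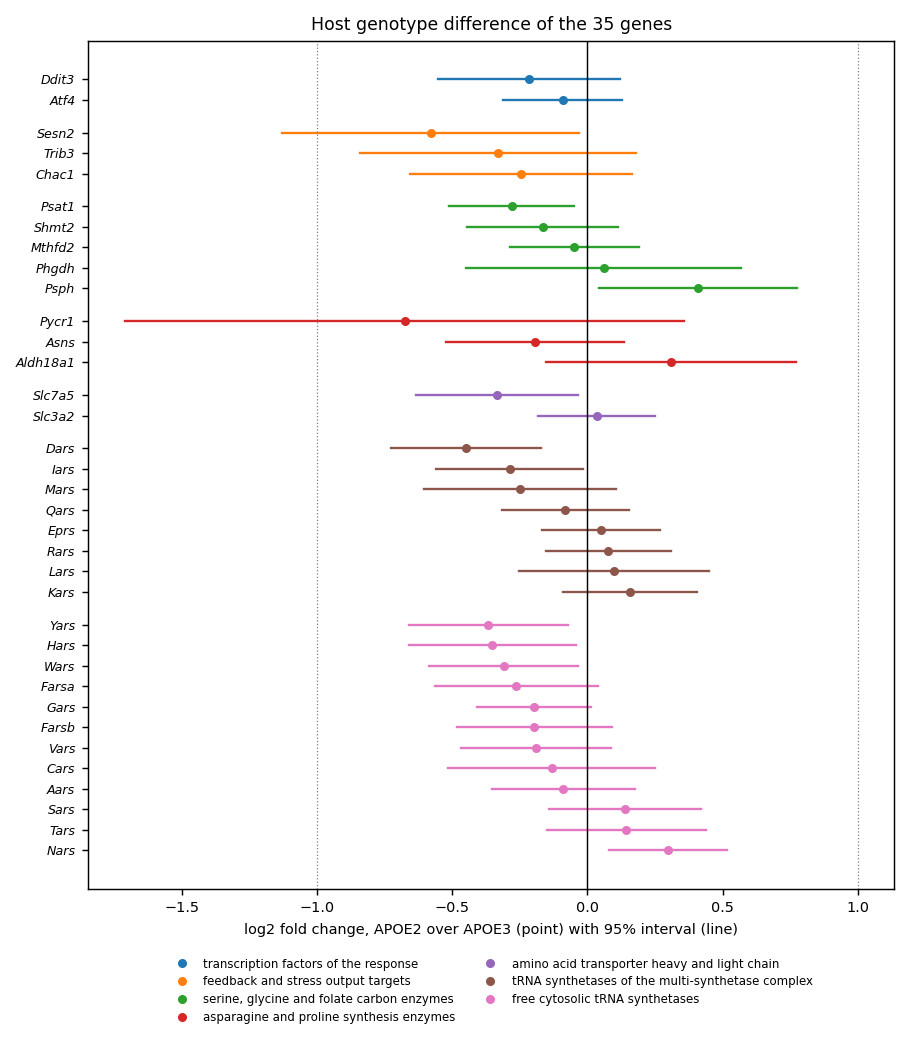
Log2 fold change of each of the 35 genes (horizontal axis, APOE2 over APOE3, on the log2(normalised count + 1) scale) by functional group (colours). Points are limma estimates, lines are 95% intervals and dotted lines mark a 2-fold change; 24 points lie left of 0, and the intervals of 33 genes stay between the dotted lines.

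Atf4 itself (chr15:80255184-80257541, plus strand, GENCODE M21 on mm10) did not pass the test. It ran from 2280.3 to 2917 (median 2666) normalised counts in the 8 APOE2 libraries and had 2559, 3606, 2544, 2672 and 2732 in APOE3 replicates 1 to 5. APOE3 replicate 2 lay above all other libraries, and the other 4 APOE3 libraries lay within the APOE2 range. The Atf4 log2 fold change was −0.092 ± 0.11 (SE; 95% interval −0.31 to 0.13; limma adjusted p = 0.742). Without APOE3 replicate 2 it was −0.00076. The coefficient of variation of Atf4 in APOE2 was 8.51%, against 1.88% from counting alone. A relation of its values to the read depth of the libraries was not tested.

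Ddit3 encodes CHOP, a bZIP factor that acts downstream of ATF4 and is known for its part in stress-induced cell death. It ran from 393 to 916 (median 578) normalised counts in APOE2 and had 549.9, 946, 686, 650.5 and 656 in APOE3. APOE3 replicate 2 was again the highest of the 13 libraries, closely followed by APOE2 replicate 8, and the groups overlapped over most of their range. The Ddit3 log2 fold change was −0.22 ± 0.16 (SE; 95% interval −0.55 to 0.12; limma adjusted p = 0.579), and it was −0.1 without APOE3 replicate 2 and −0.13 without APOE2 replicate 3. In GENCODE M21 exons of Ddit3 overlap another entry of that name on the same strand and Gm4189 on the opposite strand. They also overlap exons of the synthetase gene Mars on the opposite strand. The use of strand in counting is not given in the sources used here, so reads of Ddit3 and Mars could have been assigned to either gene. Both genes were lowest in the same library, APOE2 replicate 3, with 393 for Ddit3 and 293 for Mars. That library held the lowest value for 14.8% of all genes tested. In APOE3 replicate 2 the pair diverged, with Ddit3 at its highest (946) and Mars at the lowest of its APOE3 values (547). Whether reads were shared between the 2 genes was not tested.

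Of the other stress genes, Chac1 encodes an enzyme that degrades glutathione, Trib3 a pseudokinase that restrains ATF4 activity, and Sesn2 a sestrin that restrains mTORC1 when leucine is short. All 3 had lower means in APOE2 hosts and 0 of the 3 passed the test. Sesn2 ran from 90.6 to 207 (median 122) normalised counts in APOE2 and had 151, 359, 229, 228 and 102 in APOE3. Replicates 2, 3 and 4 of APOE3 lay above every APOE2 library, while replicate 5 lay near the bottom of the APOE2 range. The Sesn2 log2 fold change was −0.58 ± 0.27 (SE; 95% interval −1.13 to −0.031; limma adjusted p = 0.327). Leaving out single libraries moved the Sesn2 value between −0.81 without APOE3 replicate 5 and −0.36 without APOE3 replicate 2.

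Trib3 ran from 104 to 215 (median 143) in APOE2 and had 255, 254, 102, 147 and 212 in APOE3. APOE3 replicates 1 and 2 were the highest of all 13 libraries and replicate 3 was the lowest, so the APOE3 group spanned the whole range. The Trib3 log2 fold change was −0.33 ± 0.25 (SE; 95% interval −0.84 to 0.18; limma adjusted p = 0.573), and it was −0.21 without APOE3 replicate 1, −0.21 without replicate 2 and −0.54 without replicate 3. Chac1 ran from 270.3 to 531 (median 425) in APOE2 and had 297, 445, 431, 795 and 555 in APOE3, where replicate 4 was the highest library and replicate 1 the second lowest. The Chac1 log2 fold change was −0.25 ± 0.20 (SE; 95% interval −0.66 to 0.16; limma adjusted p = 0.608), and it was −0.065 without APOE3 replicate 4 and −0.42 without replicate 1.

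Serine synthesis from a glycolytic intermediate runs through Phgdh, Psat1 and Psph, and Shmt2 and Mthfd2 carry the serine-derived carbon unit into the mitochondrial folate pool. These 5 enzymes did not share a direction. Psat1, the aminotransferase of the second step, ran from 1415 to 1772 (median 1542) normalised counts in APOE2 and had 1849, 1881, 1432, 2387 and 1978 in APOE3. APOE3 replicates 1, 2, 4 and 5 lay above every APOE2 library and replicate 3 lay at the bottom of the APOE2 range. The Psat1 log2 fold change was −0.28 ± 0.11 (SE; 95% interval −0.51 to −0.048; limma adjusted p = 0.259), and each of the 8 APOE2 libraries was under the mean log2 value of APOE3.

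Psph, the phosphatase that completes the pathway, had the higher mean in APOE2 hosts. It ran from 372 to 471 (median 401) in APOE2, a narrow range, and had 359, 163, 407, 307 and 363 in APOE3. APOE3 replicates 1, 2, 4 and 5 lay below every APOE2 library, with replicate 2 far below the rest, and replicate 3 lay inside the APOE2 range. The Psph log2 fold change was 0.41 ± 0.18 (SE; 95% interval 0.043 to 0.78; limma adjusted p = 0.299). It was 0.18 without APOE3 replicate 2. Psph overlaps Cct6a on the opposite strand.

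Phgdh, the first enzyme of the pathway, ran from 115 to 286 (median 189.9) in APOE2 and from 106 to 267 in APOE3, with a log2 fold change of 0.061 whose sign was negative without APOE3 replicate 2 (−0.12). Shmt2 ran from 944 to 1232 (median 1051) in APOE2 and had 1043, 1126, 889, 1412 and 1687 in APOE3, where replicates 4 and 5 exceeded every APOE2 library. Its log2 fold change was −0.17, and −0.043 without APOE3 replicate 5, −0.11 without replicate 4 and −0.27 without replicate 3. Mthfd2 ran from 1631 to 1963 (median 1812) in APOE2 and had 1822, 1752, 2026, 1404 and 2450.4 in APOE3, with a log2 fold change of −0.049 that was 0.05 without APOE3 replicate 5. For both folate enzymes the APOE3 libraries spread on both sides of the APOE2 range. The limma adjusted p-values of the 3 genes ran from 0.611 to 0.941. Shmt2 overlaps Ndufa4l2 on the opposite strand.

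Asns makes asparagine and is a classical ATF4 target; Aldh18a1 and Pycr1 act at the start and the end of proline synthesis. Asns ran from 299 to 559.5 (median 463) normalised counts in APOE2 and had 473, 403, 603, 458 and 649 in APOE3. APOE3 replicates 3 and 5 were above every APOE2 library, and the other 3 were inside the APOE2 range. The Asns log2 fold change was −0.19 ± 0.16 (SE; 95% interval −0.52 to 0.14; limma adjusted p = 0.621), and it was −0.11 without APOE3 replicate 5 and −0.11 without APOE2 replicate 5. Aldh18a1 ran from 229 to 367 (median 293) in APOE2 and had 264, 116, 210.2, 252 and 449 in APOE3, so APOE3 held both the lowest library (replicate 2) and the highest (replicate 5). The Aldh18a1 log2 fold change was 0.31 ± 0.22 (SE; 95% interval −0.15 to 0.77; limma adjusted p = 0.56), and it was 0.055 without replicate 2 and 0.54 without replicate 5. Pycr1 had few reads, from 7.9 to 45.7 (median 30.3) normalised counts in APOE2 and 25.3, 84.7, 28.1, 18.8 and 91.4 in APOE3. Replicates 2 and 5 of APOE3 were the 2 high libraries. Its log2 fold change of −0.68 had a 95% interval from −1.71 to 0.36 and a limma adjusted p of 0.571, and counting alone gave 17.9% of error per library in APOE2. Without APOE3 replicate 2 the Pycr1 value was −0.41, and without replicate 5 it was −0.39.

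Slc7a5 (LAT1) and Slc3a2 (4F2hc) form the heterodimer that imports large neutral amino acids such as leucine. Slc7a5, the transporting chain, ran from 995 to 1498 (median 1263) normalised counts in APOE2 and had 1898, 1123, 2039, 1233 and 1818 in APOE3. Replicates 1, 3 and 5 of APOE3 lay above every APOE2 library, and replicates 2 and 4 lay inside the APOE2 range. The Slc7a5 log2 fold change was −0.34 ± 0.15 (SE; 95% interval −0.64 to −0.036; limma adjusted p = 0.299), and each of the 8 APOE2 libraries was under the mean log2 value of APOE3. The heavy chain Slc3a2 ran from 5611 to 6736 (median 5986) in APOE2 and had 5802, 5172, 5008, 6572 and 7351 in APOE3, with APOE3 libraries on both sides. The Slc3a2 log2 fold change was 0.034 ± 0.11 (SE; 95% interval −0.18 to 0.25; limma adjusted p = 0.923), and its sign was negative with equal library totals (−0.0068). The difference between the fold changes of the 2 chains was not tested.

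**Figure D2:**
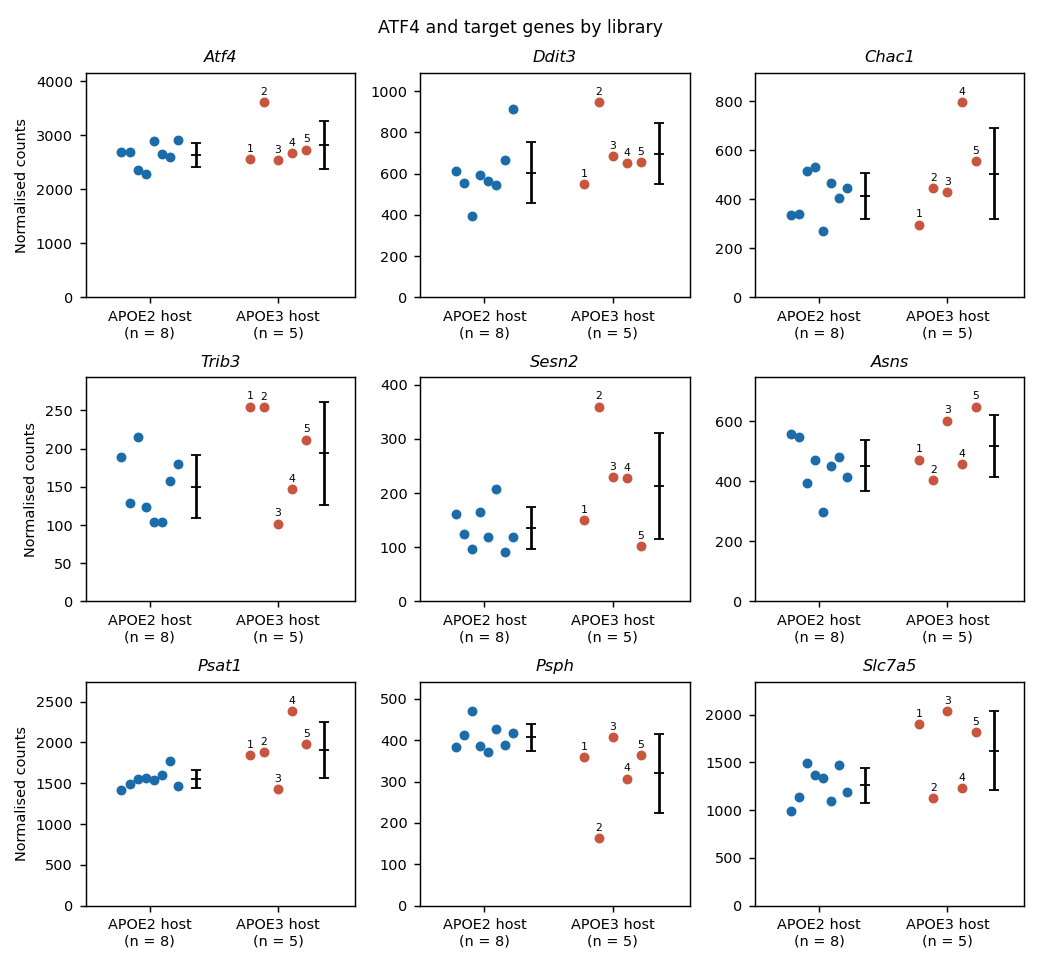
Normalised counts (vertical axis, from 0) of Atf4 and 8 target genes in each library; blue points are APOE2 hosts, red points are APOE3 hosts with their replicate number, and black marks are the mean ± SD of each group. The groups overlap in every panel, and APOE3 replicate 2 is the highest point for Atf4, Ddit3 and Sesn2 and the lowest for Psph.

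Among the 20 synthetase genes, 13 had lower means in APOE2 and 7 had higher means. The 8 enzymes of the multi-synthetase complex (Dars, Eprs, Iars, Kars, Lars, Mars, Qars and Rars) were 4 lower and 4 higher, with a median log2 fold change of −0.016. The 12 genes of free enzymes were 9 lower and 3 higher, with a median of −0.19. The difference between these 2 groups of genes was not tested.

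Dars, the aspartyl-tRNA synthetase (chr1:128363707-128417368, minus strand, GENCODE M21 on mm10), had the smallest p-value of the 35 genes. It ran from 387 to 592 (median 479) normalised counts in APOE2 and had 726, 649, 784, 578 and 597 in APOE3. APOE2 libraries were low as a group: 7 of the 8 lay below the lowest APOE3 library, and 4 of the 5 APOE3 libraries lay above the highest APOE2 library. The Dars log2 fold change was −0.45 ± 0.13 (SE; 95% interval −0.73 to −0.17; limma adjusted p = 0.12). It ran from −0.50 to −0.39 when single libraries were left out, with limma adjusted p-values from 0.106 to 0.249, and the DESeq2 adjusted p was 0.0462 where that of edgeR was 0.116.

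Nars, the asparaginyl-tRNA synthetase, had the next smallest p-value and the opposite direction. Its APOE2 libraries ran from 1789.6 to 2478 (median 2105), and its APOE3 libraries had 1754, 1889, 1673, 1729 and 1569. All but 1 of the APOE2 libraries exceeded the highest APOE3 library, and 4 of the 5 APOE3 libraries lay below the lowest APOE2 library. The Nars log2 fold change was 0.30 ± 0.11 (SE; 95% interval 0.079 to 0.51; limma adjusted p = 0.199). It stayed between 0.26 and 0.33 when single libraries were left out. Dars and Nars charge tRNA with aspartate and with asparagine, the substrate and the product of the enzyme encoded by Asns.

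Iars, which charges isoleucine, ran from 651 to 923 (median 752) in APOE2 and had 850.1, 776, 1079, 806 and 1218 in APOE3, where replicates 3 and 5 exceeded every APOE2 library. The Iars log2 fold change was −0.29 ± 0.13 (SE; 95% interval −0.56 to −0.015; limma adjusted p = 0.327), and it was −0.19 without APOE3 replicate 5. The other 6 enzymes of the complex had log2 fold changes from −0.25 for Mars (methionine) through −0.082 for Qars (glutamine), 0.049 for Eprs (glutamate and proline), 0.078 for Rars (arginine) and 0.098 for Lars (leucine) to 0.16 for Kars (lysine). Limma adjusted p-values of these 6 lay between 0.532 and 0.879. Lars ran from 735 to 1132 (median 893) in APOE2 and had 964, 485, 800.3, 930.1 and 1324 in APOE3, with the lowest library in replicate 2 and the highest in replicate 5. Without APOE3 replicate 2 the Lars value was −0.11. Kars ran from 777 to 1070.4 in APOE2 and from 695 to 1021 in APOE3, and 4 of the 8 APOE2 libraries exceeded every APOE3 library. Rars ran from 1442 to 1754 in APOE2 and from 1204 to 1814 in APOE3, and its APOE3 libraries lay on both sides of the APOE2 range. Mars ran from 293 to 795 in APOE2 and from 547 to 764 in APOE3, and Qars ran from 682 to 915 in APOE2 and from 746 to 894 in APOE3. For these 2 genes the APOE3 libraries all lay within the APOE2 range. Eprs ran from 2348 to 3118 in APOE2 and from 2294 to 3025 in APOE3, with APOE3 replicate 4 the lowest of the 13. These estimates were small and moved when 1 library was left out: Mars was −0.12 without APOE2 replicate 3, Kars was 0.075 without APOE3 replicate 4, and Qars was −0.05 without APOE3 replicate 2. Leaving out single libraries took Eprs from −0.0082 (APOE3 replicate 4) to 0.092 (APOE3 replicate 1), Rars from −0.0041 (APOE3 replicate 3) to 0.14 (APOE3 replicate 5), and Lars up to 0.25 (APOE3 replicate 5).

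Of the free enzymes, Yars (tyrosine) ran from 377 to 539 (median 410.5) in APOE2 and had 400.3, 597, 504, 636 and 621 in APOE3. Replicates 2, 4 and 5 of APOE3 lay above every APOE2 library, and replicate 1 lay in the lower part of the APOE2 range. The Yars log2 fold change was −0.37 ± 0.14 (SE; 95% interval −0.66 to −0.073; limma adjusted p = 0.24). Hars (histidine) ran from 367 to 676 (median 538) in APOE2 and had 695, 849, 736, 586 and 556 in APOE3, with replicates 1, 2 and 3 above every APOE2 library. The Hars log2 fold change was −0.35 ± 0.15 (SE; 95% interval −0.66 to −0.044; limma adjusted p = 0.291). Wars (tryptophan), which is also induced by interferon-gamma, ran from 753 to 973 (median 841) in APOE2 and had 817, 1001, 850.2, 1479.8 and 1211 in APOE3. Replicates 2, 4 and 5 of APOE3 exceeded every APOE2 library. The Wars log2 fold change was −0.31 ± 0.13 (SE; 95% interval −0.59 to −0.033; limma adjusted p = 0.299), and it was −0.18 without APOE3 replicate 4. For Yars, Hars and Wars each of the 8 APOE2 libraries was under the mean log2 value of APOE3. Yars overlaps C77080, and Hars overlaps its mitochondrial counterpart Hars2, each on the opposite strand.

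Farsa and Farsb encode the alpha and beta subunits of phenylalanyl-tRNA synthetase, so their levels can be read as a pair. Farsa ran from 708 to 1034 (median 788) in APOE2 and had 829, 1555, 900.2, 893 and 786 in APOE3. Farsb ran from 1836 to 2798 (median 2088) in APOE2 and had 2184, 3941, 1944, 2289 and 2404 in APOE3. APOE3 replicate 2 was the highest library for both subunits by a wide margin. The log2 fold changes were −0.26 and −0.20 with that library, and −0.09 and −0.029 without it; the limma adjusted p-values with it were 0.42 and 0.543. Farsb overlaps Sgpp2 on the opposite strand.

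Gars (glycine) ran from 3327 to 4169.6 (median 3909.8) in APOE2 and had 4016, 4869, 3988, 4040.4 and 5182 in APOE3, where replicates 2 and 5 exceeded every APOE2 library. The Gars log2 fold change was −0.20 ± 0.10 (SE; 95% interval −0.41 to 0.011; limma adjusted p = 0.38). The remaining 5 free enzymes had log2 fold changes of −0.19 for Vars (valine), −0.13 for Cars (cysteine), −0.089 for Aars (alanine), 0.14 for Sars (serine) and 0.14 for Tars (threonine). The limma adjusted p-values of these 5 ran from 0.55 to 0.799. Vars ran from 341 to 496 in APOE2 and from 436 to 559 in APOE3, with APOE3 replicates 1 and 4 above every APOE2 library. Aars ran from 1281 to 2190.4 in APOE2 and from 1549 to 1974 in APOE3, so that its APOE3 libraries lay within the APOE2 range. Sars ran from 674 to 1081 in APOE2 and from 603 to 952 in APOE3, and Tars ran from 878 to 1550.4 in APOE2 and from 838 to 1330.5 in APOE3. The lowest library of both was in APOE3. Cars ran from 267 to 537 in APOE2 and from 261 to 562 in APOE3, with APOE3 on both sides of the APOE2 range. Cars, which overlaps Gm15580 on the opposite strand, had a value of 0.0077 without APOE3 replicate 2 and of −0.27 without replicate 3. Sars was 0.06 without APOE3 replicate 3 and 0.22 without replicate 2, where Tars was 0.047. Aars was −0.038 without APOE2 replicate 5 and −0.15 without APOE2 replicate 6.

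**Figure D3:**
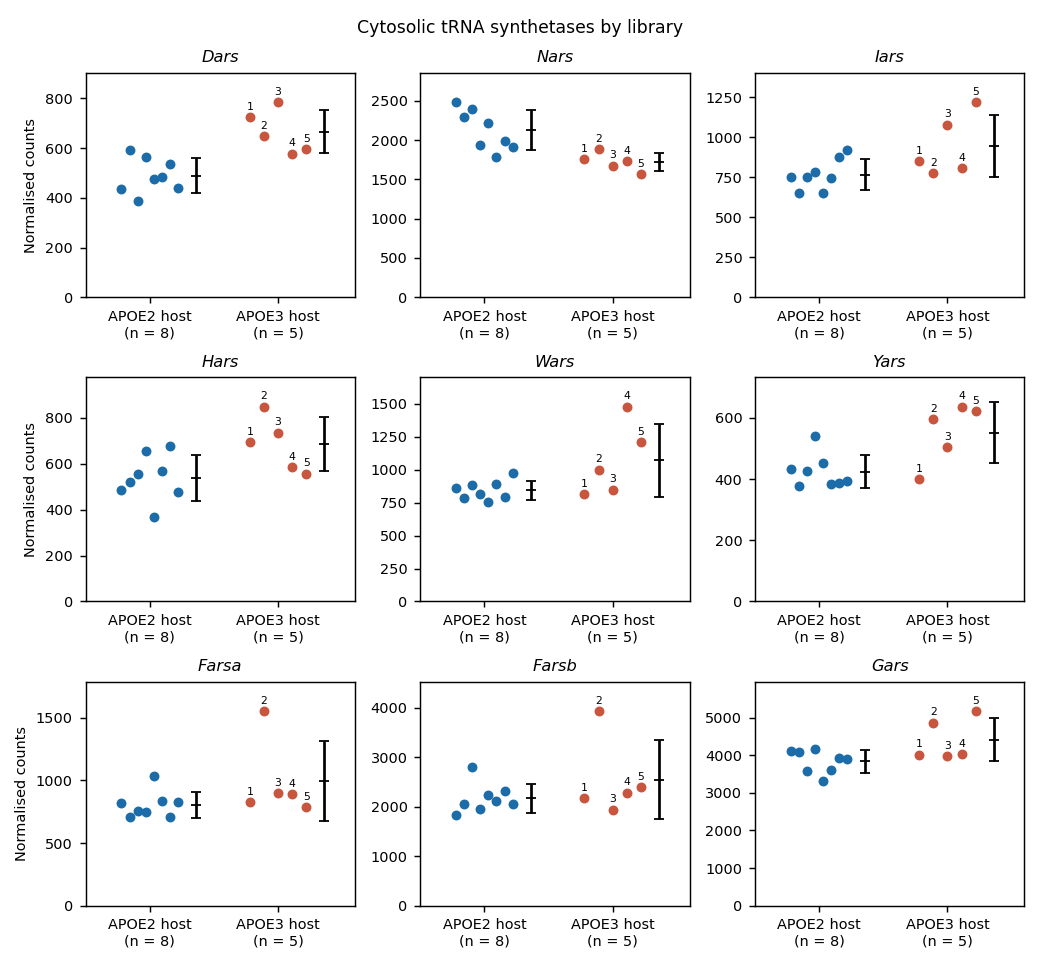
Normalised counts (vertical axis, from 0) of 9 cytosolic tRNA synthetase genes in each library; blue points are APOE2 hosts, red points are APOE3 hosts with their replicate number, and black marks are the mean ± SD of each group. The Dars and Nars panels show the least overlap, in opposite directions, and APOE3 replicate 2 stands above all other libraries for Farsa and Farsb.

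The 9 genes with TGATGNAA in the promoter window, whose sequences are given above, had a median log2 fold change of −0.25, with 8 of 9 lower in APOE2. The exception was Tars (0.14). The 17 genes with a window and no match had a median of −0.082, with 10 of 17 lower. Limma called 0 genes in either group (0.79% of all genes tested). Unadjusted p-values were under 0.05 for 2 of the 9 (22.2%) and 4 of the 17 (23.5%), against 14.2% of all, and the difference between the groups was not tested.

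The high and low libraries differed from gene to gene. Among the 15 genes of the ATF4 response, the mean log2 level ran from 8.82 to 9.15 in APOE2 and from 9.08 to 9.48 in APOE3. The lowest value was in APOE2 replicate 5 and the highest in APOE3 replicate 5. APOE2 replicate 5 had the lowest of the 13 values for 6 of the 35 genes (17.1%, against 4.83% of all genes tested). They were Chac1, Asns, Aars, Gars, Hars and Wars. An APOE3 library, replicate 3, had the lowest value for as many, 6 of the 35 (17.1%, against 5.97% of all genes tested). They were Trib3, Shmt2, Slc3a2, Rars, Cars and Sars. APOE3 replicate 5 had the highest value for 10 of the 35 (28.6%, against 11% of all genes tested): Shmt2, Mthfd2, Asns, Aldh18a1, Pycr1, Slc3a2, Iars, Lars, Rars and Gars. In the same library Nars was the lowest of 13. That library had the fewest reads, 7080308.

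APOE3 replicate 2 showed a different pattern. It held the highest value for Atf4, Ddit3, Sesn2, Cars, Farsa, Farsb and Hars and the lowest for Phgdh, Psph, Aldh18a1, Lars and Tars. As shares these were 20% and 14.3% of the 35 genes. Over all genes tested the same library held the highest value for 18.5% and the lowest for 17.9%, so it stood apart across the table and not for these genes alone. It also had the largest share of reads on the noncoding gene Gm42418, 3.74%, against 0.662% to 3.03% in the other libraries; the part of this in the results was not tested. Without it, limma called 0 of the 35 genes (0.614% of all genes), and 7 had an unadjusted p-value under 0.05 (12.5% of all genes). In the 5 APOE3 libraries together lay 25 of the 35 highest values and 15 of the 35 lowest, against 53.6% and 52.5% of all genes tested. The SD of log2 values was larger in APOE3 than in APOE2 for 24 of the 35 genes (68.6%), against 66.9% of all genes tested.

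**Figure D4:**
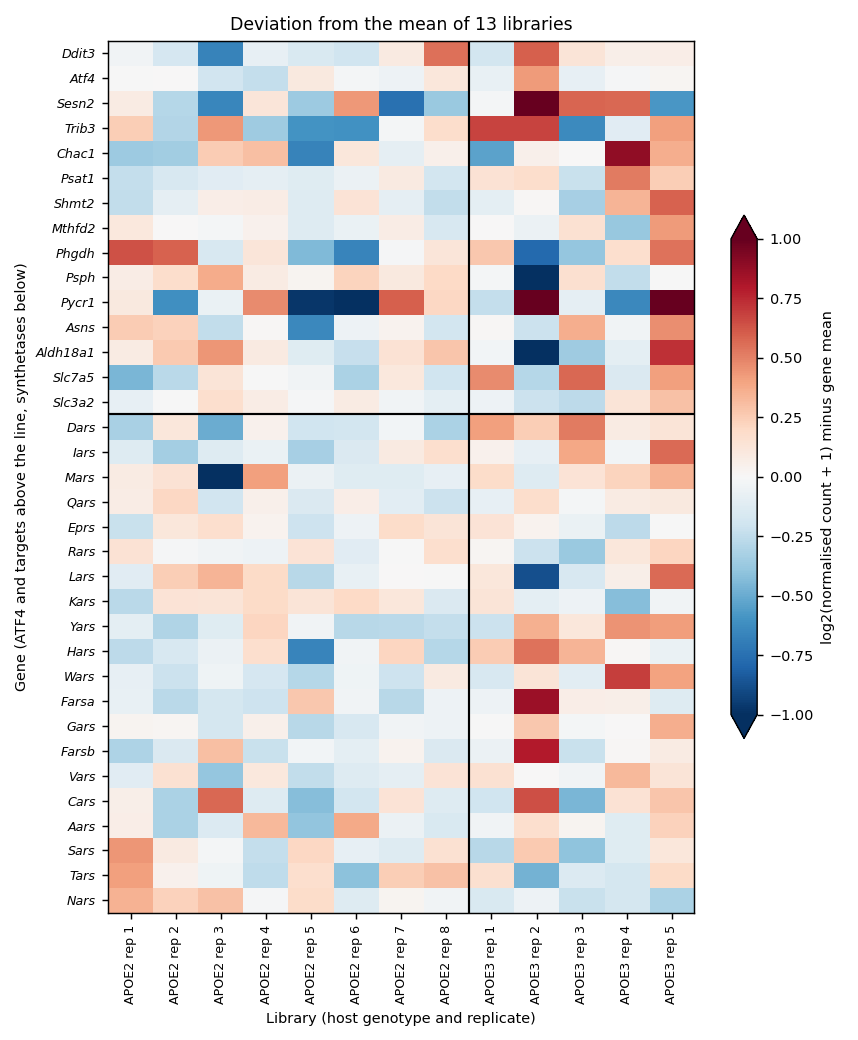
Each cell is the log2(normalised count + 1) of a gene (rows) in a library (columns) minus the mean of that gene over the 13 libraries, with red above and blue below and the colour scale ending at −1 and 1. The vertical line divides APOE2 from APOE3 and the horizontal line divides ATF4 and its targets from the synthetases; APOE3 replicate 2 holds both strongly red and strongly blue cells, and APOE3 replicate 5 is mostly red.

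Other genes of the pathway, from 7 lists of 74 genes, were taken from the same limma fit. Of the 71 tested, 0 passed the adjusted threshold, against 0.79% of all genes, and 8 had an unadjusted p-value under 0.05 (11.3%, against 14.2% of all). Among the other amino acid transporters 8 of 9 were lower in APOE2 and 3 had an unadjusted p-value under 0.05, and the median of the list was −0.34 on the log2 scale. Slc1a5, a glutamine importer, ran from 919 to 1249 (median 983) normalised counts in APOE2 and had 1184, 1563, 1217, 1077 and 1333 in APOE3, with a log2 fold change of −0.32 ± 0.12 (SE; 95% interval −0.55 to −0.077; limma adjusted p = 0.212). Slc7a1, which imports cationic amino acids, ran from 986 to 1390.2 (median 1118) in APOE2 and had 1326, 1668, 1419.5, 1052 and 1766 in APOE3, with a log2 fold change of −0.31 ± 0.13 (SE; 95% interval −0.57 to −0.05; limma adjusted p = 0.266). Replicates 2 and 5 of APOE3 were above the APOE2 range for both transporters.

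Upstream of ATF4, 16 genes were listed for the eIF2 kinases, eIF2, its exchange factor eIF2B and the eIF2 phosphatase. The kinase regulators Gcn1l1 and Impact were counted among them. These 16 genes were 12 higher and 4 lower in APOE2, with a median of 0.061. Their smallest p-value was that of Eif2s3x, the X-linked gene of the eIF2 gamma subunit, which ran from 349 to 683 (median 476) in APOE2 and had 447, 169, 339, 259 and 341 in APOE3. All but replicate 1 of the APOE3 libraries lay below every APOE2 library. The Eif2s3x log2 fold change was 0.68 ± 0.20 (SE; 95% interval 0.27 to 1.08; limma adjusted p = 0.108), and it was 0.48 without APOE3 replicate 2. Eif2b5, the catalytic subunit of eIF2B, had a log2 fold change of −0.32 (limma adjusted p = 0.344), and of −0.16 without APOE3 replicate 2.

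The mitochondrial tRNA synthetases, which serve translation inside mitochondria, were 12 higher and 5 lower of 17, with a median of 0.076 and 0 at an unadjusted limma p-value under 0.05. The 2 with the smallest p-values were Mars2 (log2 fold change −0.35, limma adjusted p = 0.51) and Vars2 (−0.28, adjusted p = 0.59). Of the 3 scaffold proteins of the multi-synthetase complex, Aimp1 had a log2 fold change of 0.28, Aimp2 of −0.19 and Eef1e1 of 0.0025, with limma adjusted p-values from 0.299 to 0.997. Aimp1 overlaps Tbck on the opposite strand.

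Other factors of the response, which were bZIP factors and Nupr1, were 5 lower and 1 higher, with a median of −0.18. Of these, Jdp2 had −0.46 (limma adjusted p = 0.281, and −0.26 without APOE3 replicate 2) and Cebpg had 0.19 (adjusted p = 0.606). Of 16 further ATF4 targets, 14 passed the filter, with 10 lower, 4 higher and a median of −0.071. The smallest p-values were those of Eif4ebp1, an inhibitor of cap-dependent translation, at 0.33 (limma adjusted p = 0.296), and Aldh1l2, a mitochondrial folate enzyme, at −0.46 (adjusted p = 0.359). Cytosolic folate and nucleotide enzymes, of which 6 of 7 passed the filter, were 3 higher and 3 lower with a median of −0.0023; Gart, an enzyme of purine synthesis, had −0.10 (limma adjusted p = 0.741).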

How the data were processed

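The deposited values are normalised counts per gene (a signal, reads divided by the size factor of the library), in 1 table with 13 library columns. The submitters' processing notes name STAR 2.6.0, featureCounts, DESeq2 1.28.1 and the build mm10; the annotation, the use of strand and the treatment of multi-mapping reads are not given in the sources used here. Every nonzero value was a whole multiple of 1 step per library (100% within 0.01 reads), and reads recovered from these steps served edgeR and DESeq2. Identifiers were paired with symbols through GENCODE M21 (22649 of 22656 found), which also gave exon overlaps on either strand; promoter sequences are from RefSeq (GRCm38.p6).

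The test was limma 3.58.1 with trend (R 4.3.3) on log2(value + pseudocount 1), for genes whose mean reached 10 normalised counts, two-sided, with Benjamini-Hochberg adjustment over all genes tested and a threshold of 0.05. Intervals are 95% limma intervals per gene, not adjusted. Alternatives were pseudocounts of 0.5 and 5, equal totals, TMM, no filter, a filter at a mean of 50, omission of each library, the replicate number as a block, no trend, edgeR 4.0.16, DESeq2 1.42.0 and a lung epithelium covariate. All 35 listed genes are named, with full statistics for at least the 2 with the smallest p-values in each group; of other lists the 2 with the smallest p-values are named, but 1 gene and 1 promoter sequence are not reported here. The genes and lists were chosen with earlier results of these data known. The counting error follows from the reads of a gene alone, and other effects of read depth were not tested.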

Additional observations from a re-analysis of the deposited data

Results flagged for a closer look

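Each of the 35 genes was screened in each genotype by Dixon's criterion, the distance of an extreme library from the next one as a share of the range of log2 values. In 70 screens 4 values stood apart, where chance gives about 3.5 at 1 in 20. APOE3 replicate 2 held 2 of them, with 3606 normalised counts of Atf4 and 1555 of Farsa, both the highest of their group. APOE2 replicate 5 was the highest of its group for Farsa, with 1034 normalised counts. APOE2 replicate 3 was the lowest of its group for Mars, with 293.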

How the results depend on the processing

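Among the 35 genes 0 were called in every alternative, except that DESeq2 on recovered reads called 1 (Dars, log2 fold change −0.45). Genes among them at an unadjusted limma p-value under 0.05 numbered 10, 5 with the replicate block, 6 without the trend and 1 with the lung epithelium covariate. In the same order, 14.2%, 10.9%, 12.9% and 6.7% of all genes tested had such a p-value. Leaving out 1 library gave 7 to 11 of the 35 genes, and 12.1% to 16.3% of all genes tested. Over all genes the 98 calls became 9 with no filter on low values, 43 with the replicate block, 311 with DESeq2, and 0 in limma both without the trend (1599 at an unadjusted p-value under 0.05) and with the covariate (831); leaving out 1 library gave 9 (without APOE3 replicate 3) to 228 (without APOE3 replicate 1), and 28 to 57 without APOE2 replicate 1, 2, 5, 7 or 8 or APOE3 replicate 4. The synthetase median of −0.16 ran from −0.23 to −0.076 when 1 library was left out and was −0.053 with the covariate, and the target median of −0.19 was −0.042 with it; the cause was not tested. A changed filter or the fit without the trend leaves each estimate as it is, so those settings could not change a sign. With them counted in, signs differed from the reported ones in 9 of 384 gene and setting pairs. These were Slc3a2 with equal totals (−0.0068) and, with the covariate, Chac1 (0.012), Mthfd2 (0.012), Asns (0.23), Eprs (−0.084), Kars (−0.027), Mars (0.14), Qars (0.12) and Aars (0.058). Leaving out 1 library changed the sign in 11 of 455 pairs: Phgdh (−0.12 to 0.21), Slc3a2 (−0.027 to 0.11), Lars (−0.11 to 0.25), Cars (−0.27 to 0.0077), Rars (−0.0041 to 0.14), Eprs (−0.0082 to 0.092) and Mthfd2 (−0.15 to 0.050).

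No pairing by replicate number showed over all genes tested, where correlations of same-numbered libraries ran from −0.063 to 0.014. A pairing that touched few genes might not show in such correlations. The replicate block changed no call among the 35 genes, but the main fit had no call among them to lose. APOE2 libraries without an APOE3 library of the same number did not inform the genotype estimate in the block fit. The stricter promoter letters TGATGCAA, counted over all matches and not only those printed, gave 6 of 26 genes in place of 9, against 1.03% of all genes with a window.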
